A study of Mus musculus with 6 samples.

Results

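The core circadian clock genes were followed through 6 lists of CUT&RUN peaks for estrogen receptor alpha (ERα). The 10 genes were chosen by name: Clock, Arntl, Per1, Per2, Per3, Cry1, Cry2, Nr1d1, Nr1d2 and Dbp, out of 21887 protein-coding genes. A peak belonged to a gene if it touched the RefSeq gene span, or lay within 100 kb of it with that gene the nearest protein-coding one. Peaks of the 6 lists that overlapped or touched were merged, which gave 38 regions at the clock genes out of 39374 in all. Gene-end regions lay within 1 kb of either end of the gene span, and all others are termed distal, inside or outside the gene.

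The mice were adult C57/BL6 males, and every group shared the removal of the gonads at an age of 10 to 12 weeks. At 3 weeks after surgery they received 5 µg of estradiol benzoate (ERa_EB) or corn oil vehicle (ERa_veh) under the skin, and nuclei of the limbic system were prepared 4 hours later. Each group has 3 libraries with a list each. The labels name the tissue but no cell type, so the peaks are a mixture over all cells of the dissection, and fewer cells with a bound site cannot be told apart from less binding per cell. The labels do not say that libraries came from separate animals, so p-values and spreads measure only the differences between these lists, which may be technical. They also give no hour of the day for the collection of tissue.

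In the molecular clock, the proteins CLOCK and BMAL1 (the product of Arntl) pair up and bind E-box sequences in the genes of their own inhibitors. The PER and CRY proteins accumulate and shut the pair off, and the nuclear receptors encoded by Nr1d1 and Nr1d2 repress Arntl in a side loop. Dbp encodes an activator that binds D-box sequences and carries the rhythm to output genes. The loop runs in most brain cells and is led by the suprachiasmatic nucleus of the hypothalamus. ERα is a ligand-activated transcription factor that binds estrogen response elements and can also reach DNA through other factors.

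Peaks were found at all 10 clock genes, at Clock in vehicle replicate 3 alone, where 61.5% of protein-coding genes had a region. Of the 38 regions, 7 (18.4%) had a peak in all 6 lists, where 7.27% of all regions did. The share over all regions is not matched for place, so these 2 shares alone do not set the clock genes apart. The 7 regions lay at Arntl, Per1 (2 regions), Per3, Cry2, Nr1d1 and Dbp, and are termed steady here. All but the Nr1d1 region and 1 Per1 region overlapped a RefSeq promoter window. Of the other regions, 3 were found in 5 lists, 12 in 2 to 4 lists and 16 (42.1%) in 1 list, where 58.9% of all regions were in 1 list. None of the 38 had a peak in 3 of 3 estradiol lists and 0 of 3 vehicle lists, and none showed the reverse. Over all regions those shares were 0.737% and 0.112%, and with shares this small a count of 0 among 38 regions does not set the clock genes apart. With a peak in 2 or 3 lists of 1 group and none of the other, 3 clock regions were found with vehicle (at Arntl, Cry1 and Nr1d2) and 0 with estradiol, against 2.60% and 3.71% of all regions. Beside the Arntl region of these 3, which lies 56.2 kb outside the gene, estradiol replicate 3 had a separate peak at 56.4 kb. With 3 libraries against 3, a single region cannot reach an exact permutation p below 0.1.

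The promoter sequences of the 5 genes whose RefSeq promoter window overlapped a peak in all 6 lists are shown here, chosen by that overlap. A short motif shared by them was seen afterwards. Each run is the 250 bases before the start site, read 5′ to 3′ on the gene's strand, from RefSeq on GRCm38.p6. Capitals mark the CCAAT box, written ATTGG where it lies on the opposite strand.
Arntl, chr7:113207215-113207464, plus strand: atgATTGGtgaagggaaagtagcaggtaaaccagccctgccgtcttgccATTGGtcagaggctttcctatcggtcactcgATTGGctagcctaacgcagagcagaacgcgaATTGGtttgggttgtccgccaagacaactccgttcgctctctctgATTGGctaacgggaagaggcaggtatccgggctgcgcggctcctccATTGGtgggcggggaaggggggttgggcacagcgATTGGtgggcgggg
Per1, chr11:69098699-69098948, plus strand: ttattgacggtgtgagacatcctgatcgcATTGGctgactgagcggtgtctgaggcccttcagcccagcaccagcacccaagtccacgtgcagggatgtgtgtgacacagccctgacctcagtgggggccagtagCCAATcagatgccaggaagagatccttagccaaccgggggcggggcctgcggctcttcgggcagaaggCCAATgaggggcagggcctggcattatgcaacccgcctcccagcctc
Per3, chr4:151044666-151044915, minus strand: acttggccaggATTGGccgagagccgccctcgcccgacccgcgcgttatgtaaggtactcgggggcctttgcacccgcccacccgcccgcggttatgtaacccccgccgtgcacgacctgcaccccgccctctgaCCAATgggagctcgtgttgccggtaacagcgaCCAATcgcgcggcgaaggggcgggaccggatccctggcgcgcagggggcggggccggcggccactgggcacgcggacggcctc
Cry2, chr2:92434070-92434319, minus strand: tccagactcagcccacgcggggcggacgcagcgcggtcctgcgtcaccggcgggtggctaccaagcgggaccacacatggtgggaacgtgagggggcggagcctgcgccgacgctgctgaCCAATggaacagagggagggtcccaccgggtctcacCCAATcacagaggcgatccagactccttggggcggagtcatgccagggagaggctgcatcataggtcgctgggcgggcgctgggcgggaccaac
Dbp, chr7:45704997-45705246, plus strand: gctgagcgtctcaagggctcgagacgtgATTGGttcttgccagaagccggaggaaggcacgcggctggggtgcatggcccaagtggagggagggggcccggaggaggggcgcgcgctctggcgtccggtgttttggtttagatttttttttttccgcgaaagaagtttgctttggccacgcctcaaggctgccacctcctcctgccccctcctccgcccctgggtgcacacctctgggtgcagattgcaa

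Of the activator genes, Arntl held the highest peak of the clock set and Clock almost none. The Arntl region (chromosome 7, 113207123 to 113207522) lies inside the gene span, 28.7 kb from its nearer end, and overlaps an annotated start site, so the gene-end rule counts a promoter peak as distal. The authors' −log10 q there was 41.5, 101.3 and 184.3 in vehicle replicates 1, 2 and 3. In estradiol replicates 1, 2 and 3 it was 80.6, 63.9 and 177.9. The groups overlapped, with replicate 3 highest in both and vehicle replicate 1, the shortest list, lowest. The fold enrichment over the caller's background was 19.3, 29.5 and 32.8 in the vehicle lists and 28.0, 24 and 34.1 in the estradiol lists. An estimated 40, 86 and 158 fragments covered the summit in the vehicle lists, and 68, 57 and 149 in the estradiol lists.

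Ranked by its lowest position within a list, the Arntl region was number 14 of the 2863 regions found in all 6 lists, at or above the 99.7 percentile of every list. The genes whose strongest region had the nearest set of 6 percentiles were Cd46, Tmem94 and Camta1, at distances of 0.128, 0.132 and 0.146 percentile points over 6 lists. The other Arntl regions were weak. There were 6 of them, at a −log10 q of at most 4.45, of which 5 were found in 1 list and 1 in vehicle replicates 2 and 3 (2.54 and 2.56, from 4 fragments each).

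Clock, which encodes the histone acetyltransferase partner of BMAL1, had 2 regions, both in vehicle replicate 3 alone. The region at the start site (chromosome 5, 76304751 to 76304841) reached 5.83 from 7 fragments, and the one 30.5 kb inside the gene 2.70. In the other 5 lists no peak was listed at Clock. The smallest summit that was listed in any library held 4 fragments, so a missing peak does not show that nothing was bound.

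**Figure D1:**
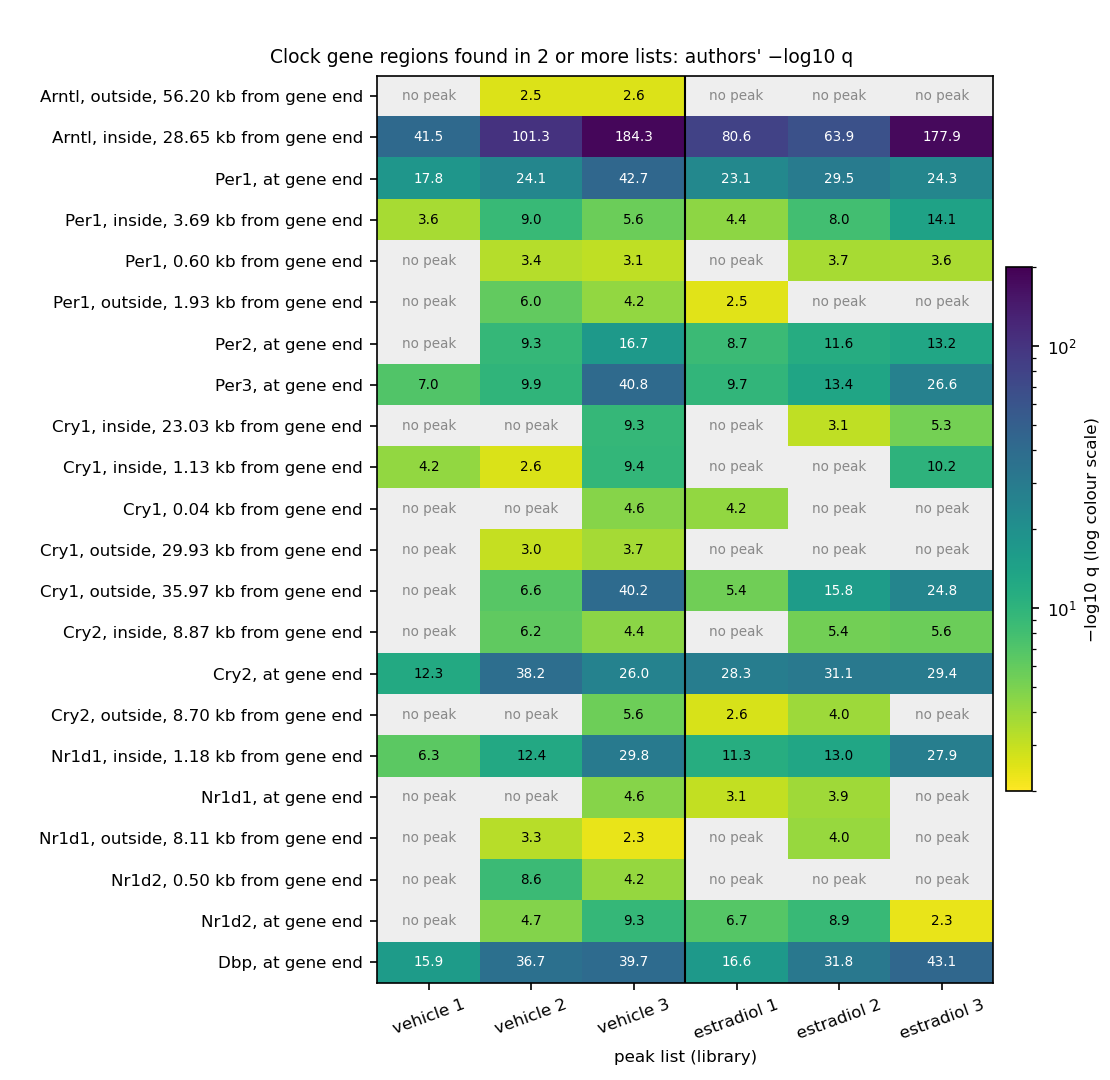
Each cell gives the authors' −log10 q of the peak (colour on a log scale) for the 22 clock gene regions found in 2 or more lists, with the 6 lists as columns and grey cells where no peak was listed. The Arntl region inside the gene is darkest in all 6 columns, and vehicle replicate 1, the shortest list, has the most cells without a peak.

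The Period genes, whose proteins hold the activator pair in check, each had a region in 5 or 6 lists. Per1 had 5 regions. The region at the low-coordinate end of its span (chromosome 11, 69094779 to 69095220) had a −log10 q of 17.8, 24.1 and 42.7 in the vehicle lists. In the estradiol lists it was 23.1, 29.5 and 24.3, which all lay within the vehicle range. The second steady region (69098803 to 69098956) overlaps an annotated Per1 start site 3.69 kb inside the span. It was weaker, at 3.63, 8.97 and 5.59 in the vehicle lists and 4.39, 8 and 14.1 in the estradiol lists, from 11 to 25 fragments. Estradiol replicate 3 was the highest there, and the groups overlapped.

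At the far end of Per1, a region 0.6 kb beyond the gene was found in vehicle replicates 2 and 3 (3.35 and 3.13) and estradiol replicates 2 and 3 (3.67 and 3.56). A region 1.93 kb beyond the gene was found in vehicle replicates 2 and 3 and in estradiol replicate 1, at 2.48 to 6. The last Per1 region was found in vehicle replicate 3 alone, at 2.08.

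Per2 had a gene-end region (chromosome 1, 91459269 to 91459567) in 5 lists. Its −log10 q was 9.31 and 16.7 in vehicle replicates 2 and 3, and 8.73, 11.6 and 13.2 in the estradiol lists, with no peak in vehicle replicate 1. The estradiol values thus ran from just below the lower vehicle value to within the vehicle range. A further Per2 region, 12.9 kb inside the gene, appeared in estradiol replicate 3 alone (2.47).

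Per3 had a gene-end region (chromosome 4, 151044660 to 151044995) in all 6 lists, at 6.97, 9.86 and 40.8 in the vehicle lists and 9.69, 13.4 and 26.6 in the estradiol lists. Replicate 3 was highest in both groups. This region is shared with Gm38529, a predicted gene on chromosome 4 (151044853 to 151059056). All 6 of its peaks touch Gm38529, and 2 of the 6 also touch Per3, both in estradiol lists. Assigned peak by peak, Per3 therefore had 0, 0 and 0 peaks with vehicle and 0, 1 and 3 with estradiol. Assigned through the merged region, the counts were 1, 1 and 1 against 1, 1 and 3. The other 2 Per3 regions, inside the gene, were found in estradiol replicate 3 alone, at 3.58 and 2.47.

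The cryptochrome genes, partners of the Period proteins in repression, differed from each other in how steady their promoter peaks were. Cry2 had a promoter region in all 6 lists (chromosome 2, 92434048 to 92434316), at 12.3, 38.2 and 26.0 in the vehicle lists and 28.3, 31.1 and 29.4 in the estradiol lists. The 3 estradiol values were close to each other and lay inside the vehicle range. A second region, 8.87 kb from the gene end and inside the gene, was found in replicates 2 and 3 of both groups at 4.44 to 6.19. Another, 8.70 kb outside, was found in vehicle replicate 3 and estradiol replicates 1 and 2 at 2.63 to 5.56.

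Cry1 had 9 regions, the most of any member, and none in all 6 lists. At its start site (chromosome 10, 85185093 to 85185141) a peak was listed in vehicle replicate 3 (4.58) and estradiol replicate 1 (4.25), each with its summit at -56 bp from the start site. Its strongest region was distal, 36.0 kb outside the gene (85221019 to 85221150). There vehicle replicates 2 and 3 reached a −log10 q of 6.56 and 40.2, and the estradiol lists 5.43, 15.8 and 24.8. It had no peak in vehicle replicate 1, and its 5 summits lay within 34 bp. A region 1.13 kb inside the gene, just past the 1 kb gene-end limit, was found in all 3 vehicle lists (4.21, 2.61 and 9.40) and in estradiol replicate 3 (10.2). A region 23.0 kb inside was found in vehicle replicate 3 (9.28) and estradiol replicates 2 and 3 (3.12 and 5.26), and one 29.9 kb outside in vehicle replicates 2 and 3 (2.98 and 3.71). The remaining 4 Cry1 regions were found in 1 list each, at 2.25 to 2.78.

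The REV-ERB genes, whose nuclear receptor products repress Arntl, had their highest peaks at different places. In Nr1d1 the steady region lay inside the gene, 1.18 kb from its nearer end (chromosome 11, 98773988 to 98774196). Its −log10 q was 6.34, 12.4 and 29.8 in the vehicle lists and 11.3, 13 and 27.9 in the estradiol lists, with summits at 1264 to 1311 bp past the start site. Replicate 3 was highest in both groups and the groups overlapped. At the Nr1d1 start site itself, a region was found in vehicle replicate 3 (4.6) and estradiol replicates 1 and 2 (3.06 and 3.89). A region 8.11 kb outside was found in vehicle replicates 2 and 3 (3.28 and 2.31) and estradiol replicate 2 (4.04).

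Nr1d2 had its main region at the start site (chromosome 14, 18239049 to 18239275), in 5 lists. It was 4.70 and 9.28 in vehicle replicates 2 and 3 and 6.72, 8.95 and 2.32 in the estradiol lists. A second gene-end region, 0.498 kb from the end, was found in vehicle replicates 2 and 3 (8.63 and 4.16) and in no estradiol list. The last, 48.0 kb outside, appeared in estradiol replicate 2 alone (3.45).

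The output gene Dbp had a single region (chromosome 7, 45704786 to 45705115), found in all 6 lists. Its −log10 q was 15.9, 36.7 and 39.7 in the vehicle lists and 16.6, 31.8 and 43.1 in the estradiol lists, from 21 to 46 fragments. Replicate 1 was lowest in both groups. The 6 summits lay within 8 bp, at -280 to -272 bp from the start site, beyond the far edge of the promoter window.

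**Figure D2:**
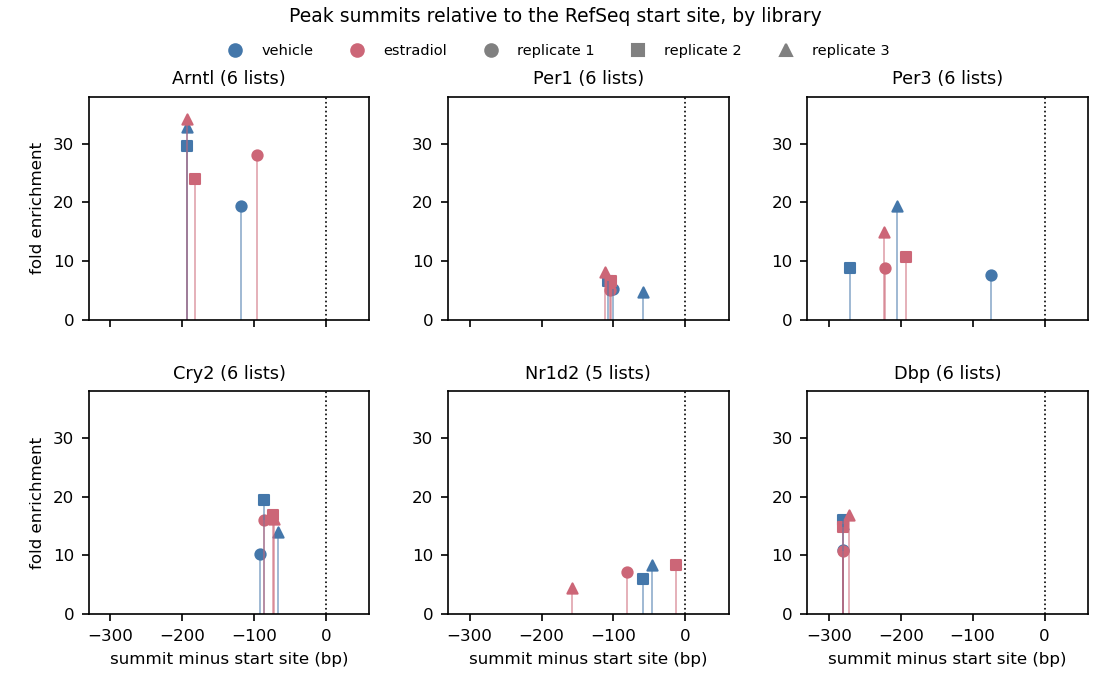
The position of each library's peak summit relative to the RefSeq start site (bp, horizontal) is plotted against its fold enrichment over the caller's background (vertical) for 6 clock genes, in blue for vehicle and red for estradiol, with a marker for each replicate number. All summits lie upstream of the start site, those of Dbp together at -280 to -272 bp, those of Cry2 at -92 to -67 bp, and those of Arntl spread over 98 bp.

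At the promoters of these 6 genes the summits fell upstream of the start site in every list that had a peak. They lay at -194 to -96 bp for Arntl, -112 to -59 bp for Per1, -271 to -74 bp for Per3, -92 to -67 bp for Cry2 and -157 to -13 bp for Nr1d2. Vehicle and estradiol summits overlapped or tied at all 6 genes. At the weaker Nr1d1 start-site region the 3 summits lay on the other side, at 47 to 69 bp. For Arntl, both lists of replicate 1 had the summit closest to the start site, at -119 and -96 bp, and the other 4 had theirs at -194 to -183 bp.

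Counted over genes, 6 of 10 members had a region found in all 6 lists, where 13.3% of protein-coding genes had one. With gene-end regions alone the count was 4 of 10 (Per1, Per3, Cry2 and Dbp), against 10.3%. By promoter windows, which span 250 bases before to 50 after a RefSeq start site, it was 5 of the 9 members with an entry (Arntl, Per1, Per3, Cry2 and Dbp), against 11.0% of 17492 genes. The farthest assigned region lay 81.0 kb from its gene, Cry1, within the 100 kb limit. By place, 14 of the 38 regions were at gene ends, 12 inside genes and 12 outside. The steady regions numbered 4, 3 and 0 in these places. The shares of all regions by place are not given here, so these counts do not set the clock genes apart.

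In the lists as deposited, no difference between estradiol and vehicle in the peaks summed over the 10 genes exceeded the spread of the lists. For single genes this does not always hold: Per2 differed by 0.667 peaks against an SD of 0.577 in each group. Over the 10 genes, 7, 17 and 27 peaks were listed with vehicle and 15, 17 and 21 with estradiol, or 17 ± 10 (SD, n = 3) and 17.7 ± 3.06 (SD, n = 3). At gene ends there were 3, 7 and 12 against 7, 8 and 8, with means of 7.33 ± 4.51 and 7.67 ± 0.577 (SD, n = 3). Distal peaks numbered 4, 10 and 15 against 8, 9 and 13, with means of 9.67 ± 5.51 and 10 ± 2.65 (SD, n = 3). The vehicle lists spanned the estradiol lists on all of these counts. With every list cut to its 5421 highest peaks, the gene-end difference (estradiol minus vehicle) was 1 against an SD of 0.913. Without vehicle replicate 3, the longest list, it was 2.67 against 2.04 at gene ends and 5.67 against 5.45 over all peaks.

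The number of clock gene peaks moved with the length of the list. The 6 lists held 5421 to 20541 peaks in all, and clock gene peaks made up 12.0 to 13.5 of every 10000 in each of them. Vehicle replicate 1, with 5421 peaks, was the shortest and had the fewest clock gene peaks. Without it, the difference over the 10 genes was -4.33 peaks (estradiol minus vehicle) in place of 0.667. Replicate 3 of both groups carries shorter labels and another style of peak name, and was set apart for the comparison that follows. The group means, the region classes and the gene-by-gene permutation test pooled all 3 replicates without a batch term. Within replicates 1 and 2 the difference was 4 peaks, and in replicate 3, with 1 list per group, it was -6.

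**Figure D3:**
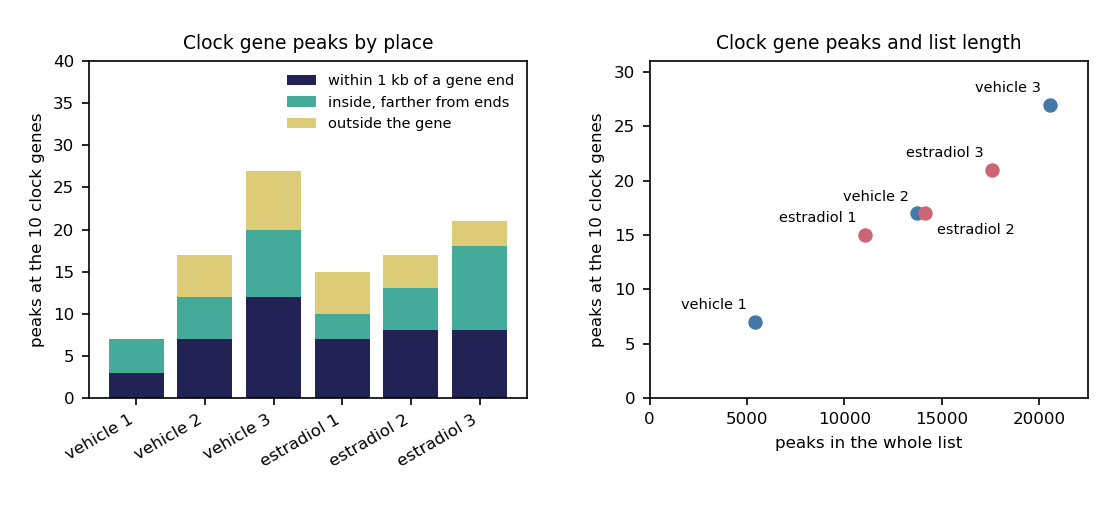
The left panel stacks the number of peaks at the 10 clock genes by place (gene end, inside, outside) for each of the 6 lists, and the right panel sets the total against the number of peaks in the whole list, in blue for vehicle and red for estradiol. The totals run from 7 in vehicle replicate 1 to 27 in vehicle replicate 3 and follow list length in both groups.

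Gene by gene, the number of peaks per list was tested over all 13494 protein-coding genes with a peak, by a two-sided exact permutation test with Benjamini-Hochberg adjustment over those genes. No gene passed at an adjusted p of 0.05, none had an unadjusted p under 0.05, and 184 reached the smallest possible value of 0.1. None of the 10 members held more peaks in every estradiol list than in every vehicle list, against 1.03% of the genes, and none held fewer throughout, against 0.333%. The largest differences in the exact permutation test were at Per3 (1.33 peaks more with estradiol, p = 0.4), Per2 (0.667 more, p = 0.6) and Per1 (-0.667, p = 0.7), each with an adjusted p of 1. The Per3 value comes in equal parts from the shared region described above (0.667) and from the peaks inside the gene in estradiol replicate 3 alone (0.667). It was 0.500 without estradiol replicate 3 and 2 without estradiol replicate 1, and 0.667 through the merged region. Cry1 and Clock also differed by -0.667 peaks, Arntl and Cry2 by 0.333, and Nr1d1, Nr1d2 and Dbp by 0.

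In a wider list of 22 clock regulators and outputs, 19 genes had a region, where 61.5% of protein-coding genes had one. Of the 22, 7 had one in all 6 lists, each at a gene end, and none had an estradiol-only or vehicle-only region. Over all protein-coding genes the gene-end share was the 10.3% given above. Of their 85 regions, 8 were in all 6 lists, where 7.27% of all regions were. Estradiol-only and vehicle-only regions made up 0.737% and 0.112% of all regions. The highest by within-list percentile were at Ciart, a repressor of the activator pair, at Prmt5, an arginine methyltransferase, and at Tef, a relative of Dbp. Ciart (chromosome 3, 95882240 to 95882537) had a −log10 q of 15.5, 30.2 and 39.2 in the vehicle lists and 27.2, 24.1 and 37.4 in the estradiol lists. At Prmt5 the values were 12.5, 24.4 and 34.9 against 20.1, 23.2 and 28.6, and at Tef 9.8, 16.9 and 37.1 against 21.8, 26.8 and 16.5. The groups overlapped at all 3. The remaining genes with a region in all 6 lists were Csnk1d, Btrc, Usp2 and Nono, named after their values were seen.

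The promoter windows of the clock genes were searched for motifs of the clock and of ERα on both strands. The estrogen response element, GGTCA and TGACC with any 3 bases between, was in none of the 13 windows of the 9 members with an entry, and is in 0.0517% of the 21263 windows of protein-coding genes. Its core GGTCA is in 39.4% of windows. It was found in the windows of Arntl, Per3, Cry1, Cry2 and Nr1d2, in 1 of 2 Per1 windows and in 1 of 3 Clock windows, and part of these matches also belong to AGGTCA. In Arntl it stands at -198 and -179 bp, beside summits at -194 to -183 bp in 4 lists. The Arntl match at -198 bp, the Per3 match at -118 bp and the Cry2 match at -133 bp each share letters with a CCAAT box, at -201, -115 and -130 bp. A match is only a match of letters.

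The clock's own motifs were spread over the set. The E-box CACGTG, in 7.84% of all windows, was found in 1 of 2 Per1 windows, at -166 bp, and in Cry1 at -60 bp. Its variant CACGTT, in 4.68%, was found in Cry2, Cry1 and Nr1d1, written AACGTG where it lies on the other strand. The D-box TTATGTAA, in 0.894%, stands 2 times in the Per3 sequence shown above, at -205 and -158 bp, in the stretch that held the summits of vehicle replicate 3 (-205 bp) and of estradiol replicate 2 (-192 bp). The other 4 Per3 summits lay outside it, at -74 and -271 bp with vehicle and -222 and -223 bp with estradiol. The core AGGTCA bound by ROR and REV-ERB proteins, in 14.7%, was found in Nr1d2, 1 of 2 Per1 windows, 1 of 2 Arntl windows and 1 of 3 Clock windows. The cAMP response element TGACGTCA, in 2.23%, was in none.

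The CCAAT box, known as a binding sequence of the factor NF-Y, was counted after the sequences had been seen. Arntl has 8 copies in its first window, 7 of them in the stretch printed above and 1 past the start site, and no other of the 21263 windows has as many. The second Arntl window overlaps the first and has 7. Per1 and Per3 have 3 copies, which 3.92% of windows reach, and Cry2 and Dbp have 2, which 12.8% reach. Of the Dbp copies, 1 is in the stretch printed above and 1 lies past the start site, at 27 bp. The Dbp region ends at 45705115, before the start site, so it does not reach the second copy. No list has its Dbp summit inside the window. With the printed copy alone, Dbp would fall among the windows with 0 or 1 copy, and the split given next would not hold. Every member window with 2 or more copies (6 of 6) overlapped a region found in all 6 lists. None of the 7 windows with 0 or 1 copy did, which are those of Clock, Cry1, Nr1d1, Nr1d2 and the second Per1 start site. The box and the cut at 2 copies were chosen after seeing sequences printed for their peak in all 6 lists. This split is therefore no test of the box. The 6 windows belong to 5 genes, and the 2 Arntl windows overlap the same region. The split also rests on the demand for all 6 lists. The Nr1d2 window, with 1 copy, overlapped a peak in 5 lists and lacked one only in vehicle replicate 1, the shortest list. The Nr1d1 window overlapped a peak in 3 lists and the Cry1 window in 2. Clock, with GC-rich windows of 76.3% and 76.7% at the start sites near its peak, has no copy in either. Per2 has no entry in the promoter table.

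The same count over all promoter windows gave the background for these genes. A region found in all 6 lists overlapped 5.56% of windows without a CCAAT box (95% exact binomial interval 5.18 to 5.97), 8.88% with 1, 24.8% with 2, 45.5% with 3 and 71.8% with 4 or more (191 of 266 windows, 66.0 to 77.1). The median GC content of these classes was 54.3% to 57.7%, with no steady rise or fall. For ACACT, a pentamer with the same bases in another order, the shares were 11.5%, 8.30%, 6.19%, 5.08% and 2.78%. The median GC content of the ACACT classes fell from 59% without a copy to 42.5% with 4 or more, so the control is not matched for GC. Windows without and with 4 or more boxes held a peak in 6.98% and 73.3% of cases in vehicle replicate 1, and in 22.0% and 83.8% in vehicle replicate 3. In the estradiol lists the share with 4 or more boxes was 78.9%, 79.7% and 81.2%, inside the vehicle range. Windows of neighbouring genes and of several start sites of a gene can overlap, so they are not independent, and the intervals cover counting error only.

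**Figure D4:**
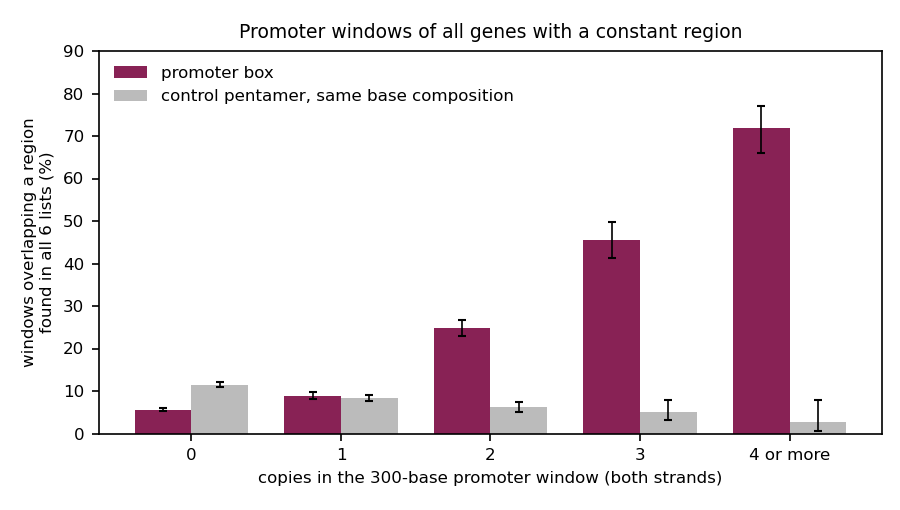
Bars give the percent of promoter windows of all genes that overlap a region found in all 6 lists, by the number of copies of the CCAAT box (purple) or of a control pentamer with the same bases (grey), with 95% exact binomial intervals. The share rises from 5.56% without a box to 71.8% with 4 or more, and falls from 11.5% to 2.78% for the control pentamer, whose classes fall in median GC from 59% to 42.5%.

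The tissue label could be checked only loosely, because peak lists do not measure RNA. A gene-end peak in at least 1 list was found at 6 of 8 neuronal markers, 2 of 3 astrocyte, 2 of 3 oligodendrocyte, 0 of 3 microglial and 2 of 5 liver genes. A gene-end region in all 6 lists was found at 1 of 8 neuronal markers and at none of the others, where 10.3% of protein-coding genes had one. The share of all genes with a gene-end peak in at least 1 list is not given here. These counts therefore do not set any cell type apart.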

How the data were processed

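CUT&RUN libraries of ERα from 3 vehicle and 3 estradiol samples were analysed from their peak lists. Per the submitters' processing notes, cutadapt, Bowtie2, Picard, SAMtools, deepTools and MACS2 were used on mm10; versions, roles and any control library are not given in the sources used here. The deposited lists hold for each peak a score (not used), a fold enrichment over the caller's background (a ratio), a −log10 p and a −log10 q, called by the authors per library at q 0.01, judged by the peak names. These are the authors' values and describe peaks within a list. The depth of each library is unknown; list lengths stand in the report.

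Summit fragments were estimated from the deposited fold and −log10 p (pseudocount 1, Poisson tail), which gave whole numbers within 0.0002 for 99.989% to 100% of peaks per list. Peaks were merged at 1 bp and assigned with RefSeq GRCm38.p6 spans, which have mm10 coordinates, in Python 3.11.15 with pandas 2.3.3, numpy 2.4.6 and scipy 1.17.1. The number of peaks at each gene was compared between groups with the two-sided exact permutation test, Benjamini-Hochberg adjusted over all genes with a peak. The code was tested on simulated data. All 10 members are named; other genes were named if they held an estradiol-only or vehicle-only region, ranked in the top 3 or came nearest to the Arntl region, and 4 others as the text says. Members and lists were chosen with earlier results of these data known. Alternatives are given in the closing section. Genome sequence outside promoter windows was not used here.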

Additional observations from a re-analysis of the deposited data

How the results depend on the processing

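Chosen after seeing the data were the start-site rule for gene ends, assignment through merged regions, the 2 looser or stricter rules for regions in all lists and all CCAAT counts. No estradiol-only clock region appeared in any setting, where 0.373% to 4.93% of all regions met the rule. Vehicle-only regions numbered 3 when 2 of 3 libraries sufficed (2.60% of all regions did so) and 0 to 3 over the left-out libraries: 3 without vehicle replicate 1 (all regions 2.29%), 1 without estradiol replicate 3 (0.402%). Regions in all libraries numbered 12 when 2 of 3 per group sufficed (17.5% of all regions). They numbered 5 when peaks had to cover 50% of the region (2.45%) and 6 after cutting to equal length (14.4%). Over left-out libraries they numbered 7 to 10 (8.12% to 11.9%). The peak difference (estradiol minus vehicle) was -0.333 by summits, 0 through merged regions and -4.33 to 5.67 over left-out libraries, negative without vehicle replicate 1 (-4.33) or estradiol replicate 3 (-1). At gene ends it was -0.667 by summits, -0.667 with 2 kb ends, -0.333 through merged regions, 0.667 by start sites, 1 after cutting the lists to equal length, and -1.83 to 2.67 over left-out libraries. The distal difference was -0.667 with lists of equal length (5421 peaks), 1.33 with 2 kb ends, 0 by start sites or a −log10 q of at least 3, and -2.50 to 3 over left-out libraries. Single genes that turned were Cry2 (-0.333 with equal lengths, -0.167 to 0.833 over left-out libraries), Arntl (-0.500 to 1) and Cry1 (-2 to 1); the cause was not tested. Of the windows with 4 or more CCAAT boxes, 67.7% to 76.3% overlapped a region in all libraries over the settings tried.

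Taking equal replicate numbers as a replicate block gave 4 vehicle-only regions (vehicle without estradiol in 2 or more of 3 pairs, the opposite in none) and 0 estradiol-only ones, where 3.06% and 4.93% of all regions met these rules. The peak difference was 0.667 as without the block, and the exact paired permutation test, whose smallest p is 0.250, passed no gene. The labels share only a number: deviations of same-numbered lists correlated at -0.0293, 0.0213 and -0.0148.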
